A study of Sus scrofa with 63 samples.

Results

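Transforming growth factor beta (TGF-beta) signalling in the jejunum of late fetal pigs was followed through 10 genes: the ligands TGFB1, TGFB2 and TGFB3, the receptors TGFBR1, TGFBR2 and TGFBR3, the receptor-activated SMADs SMAD2 and SMAD3, the common SMAD SMAD4 and the inhibitory SMAD SMAD7. They are 10 of the 45222 names that the scanner files pair with probes, symbols and accessions together. Every array probe whose name was one of these symbols, in any letter case, was taken, which gave 29 of 60305 probes. Of the 40515 probes bright enough to be tested, 26 were probes of these genes, and they covered 9 of the 10 genes. The only probe of TGFBR2 was well above background on 4 of 63 arrays and was not tested. Another probe of TGFB3, on 0 of 63 arrays, and another of SMAD4, on 4 of 63, were not tested either.

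RNA from the middle jejunum of 63 male fetuses, taken by caesarean, was hybridised to a single-colour Agilent array, with 1 fetus per array. Large White (LW) fetuses had an LW sow and an LW sire, Meishan (MS) fetuses an MS sow and an MS sire, MSLW fetuses an LW sow and an MS sire, and LWMS fetuses an MS sow and an LW sire. At day 90 of gestation there were 9 LW, 8 MSLW, 9 LWMS and 6 MS fetuses, and at day 110 there were 9 LW, 6 MSLW, 9 LWMS and 7 MS fetuses. Sows received mixed semen, so that a litter held purebred and crossbred fetuses, and litter mates counted as independent fetuses in the tests.

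TGF-beta ligands are secreted in a latent form and, once released, bind TGFBR2, which recruits and activates TGFBR1, while TGFBR3 (betaglycan) presents the ligand, TGFB2 above all. The active receptor phosphorylates SMAD2 and SMAD3, which join SMAD4 and enter the nucleus to regulate target genes. SMAD7 is induced by the pathway and blocks it at the receptor. In the intestine the pathway restrains epithelial proliferation and drives matrix production by mesenchymal cells.

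Several genes were measured by more than 1 probe, and probes of a gene did not always behave alike, so the sequences of 5 of them are given where a second probe adds to or differs from the first. Each is a 60-base oligonucleotide of the array, read 5′ to 3′ in the scanner files. The probes of TGFB2 below are the ones called lower at day 110, that of TGFBR3 is the dimmer of its pair, and those of TGFB1 and SMAD3 are the dimmest probes of their genes and were not called.
TGFB1 A_72_P442849: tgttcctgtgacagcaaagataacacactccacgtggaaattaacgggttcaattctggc
TGFB2 A_72_P176121: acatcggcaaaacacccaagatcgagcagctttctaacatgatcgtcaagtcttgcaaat
TGFB2 A_72_P541206: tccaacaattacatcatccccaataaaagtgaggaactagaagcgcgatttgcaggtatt
TGFBR3 A_72_P077506: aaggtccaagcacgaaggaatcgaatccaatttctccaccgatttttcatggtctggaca
SMAD3 A_72_P444518: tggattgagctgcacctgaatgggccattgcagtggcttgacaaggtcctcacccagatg
Of the probes used here, A_72_P223537 and O11056 of TGFB3 share 57 of their 60 bases, as do A_72_P153726 and A_72_P631629 of SMAD4, so each of these pairs measures nearly the same target.

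Levels are log2 signals after the array's 75th percentile was set to 0, and they are compared only within a probe. A gene is represented by its tested probe with the highest mean over the 63 arrays. The share of probes well above background on an array had medians of 60.5 to 71.3% across the groups. The arrays of MS fetus 632 and LW fetus 575, both of day 110, stood apart in tissue markers. The mean log2 level of 5 epithelial markers (EPCAM, CDH1, FABP2, LCT and ALPI) was 0.48 in fetus 632 and 1.91 in fetus 575, against medians of 4.41 in the MS group and 4.35 in the LW group. The fibroblast markers of fetus 632 were at 4.00, the highest of its group, whose median was 2.62. Results without these fetuses are given where they change a call.

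The question of change between the ages was asked as the mean over the 4 genotypes of day 110 minus day 90. Of the 26 probes, 10 were lower at day 110 (limma, adjusted p of at most 0.01) and 0 were higher. That is 38.5% of the probes, where 28.5% of all 40515 probes were called and 15.9% were called lower. Counted by representative probe, TGFB3, TGFBR1, SMAD2, SMAD3 and SMAD7 were lower, which is 5 of 9 genes, although other probes of TGFBR1, SMAD3 and SMAD7 were not called, and the median difference of the 9 was -0.27 on the log2 scale against -0.02 over all probes. The fall was largest for TGFB3 and was between 0.27 and 0.41 for the rest. In whole tissue, fewer cells of a type and less RNA per cell cannot be told apart.

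**Figure D1:**
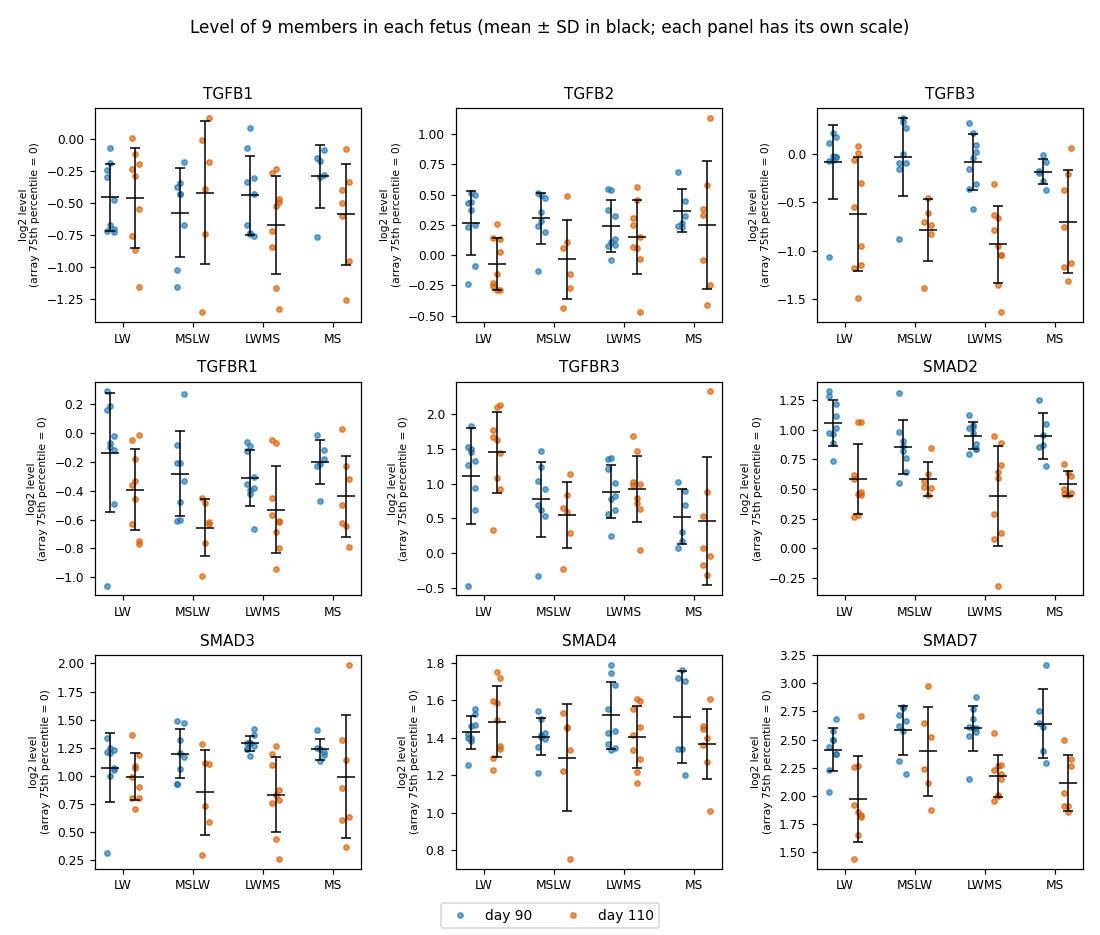
Log2 level (the array's 75th percentile is 0) of the representative probe of 9 genes in each fetus, by genotype and day (blue: day 90, orange: day 110), with the group mean ± SD in black. The day 110 means of TGFB3, TGFBR1, SMAD2, SMAD3 and SMAD7 lie below those of day 90 in each of the 4 genotypes, while points of both days overlap within every genotype.

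Among the ligands, TGFB3 fell. Its level at day 90 was -1.07 to 0.37 (median -0.05, 32 fetuses), and at day 110 it was -1.64 to 0.08 (median -0.76, 31 fetuses). The ranges overlapped, but the day 110 median lay above only 2 of the 32 fetuses of day 90. The difference was -0.66 (SE 0.10, limma adjusted p = 6.22e-07), or 0.631 times the day 90 signal. The overlapping probe gave -0.67 (SE 0.10), and the third probe, which shares no such stretch, gave -0.76 (SE 0.11, adjusted p = 1.11e-07). By genotype, the difference of the representative probe was -0.53 in LW, -0.75 in MSLW, -0.85 in LWMS and -0.51 in MS, and only that of LWMS was called (adjusted p = 0.000862). Without fetuses 632 and 575 that of MSLW was called too (adjusted p = 0.0168 with all fetuses and 0.00964 without them). Within each of the 8 slides the day 110 mean was below the day 90 mean, with differences from -0.89 to -0.51.

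TGFB2, the ligand that most depends on TGFBR3, gave different sizes by probe. Its representative probe ran from -0.24 to 0.69 (median 0.30) at day 90 and from -0.47 to 1.14 (median 0.06) at day 110. The difference of -0.22 (SE 0.08, adjusted p = 0.0160) was not called. The fetus at 1.14 was fetus 632, and without it the difference was -0.26 (adjusted p = 0.00213), which is called. Both other probes were called, A_72_P176121 at -0.36 (SE 0.10, adjusted p = 0.00186) and A_72_P541206 at -0.50 (SE 0.13, adjusted p = 0.00178). The latter was the dimmest, well above background on 58 of 63 arrays, and its call was lost with normexp correction and with quantile normalization.

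TGFB1, the ligand best known for restraining immune cells, was not called by either probe. Its representative probe was at -1.15 to 0.09 (median -0.40) at day 90 and at -1.36 to 0.17 (median -0.49) at day 110, so that the groups covered much the same range. The difference was -0.09 (SE 0.09, adjusted p = 0.454). The second probe, A_72_P442849, gave -0.30 (SE 0.13, adjusted p = 0.0543). With array weights it was at -0.38 (adjusted p = 0.00211), which is called.

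**Figure D2:**
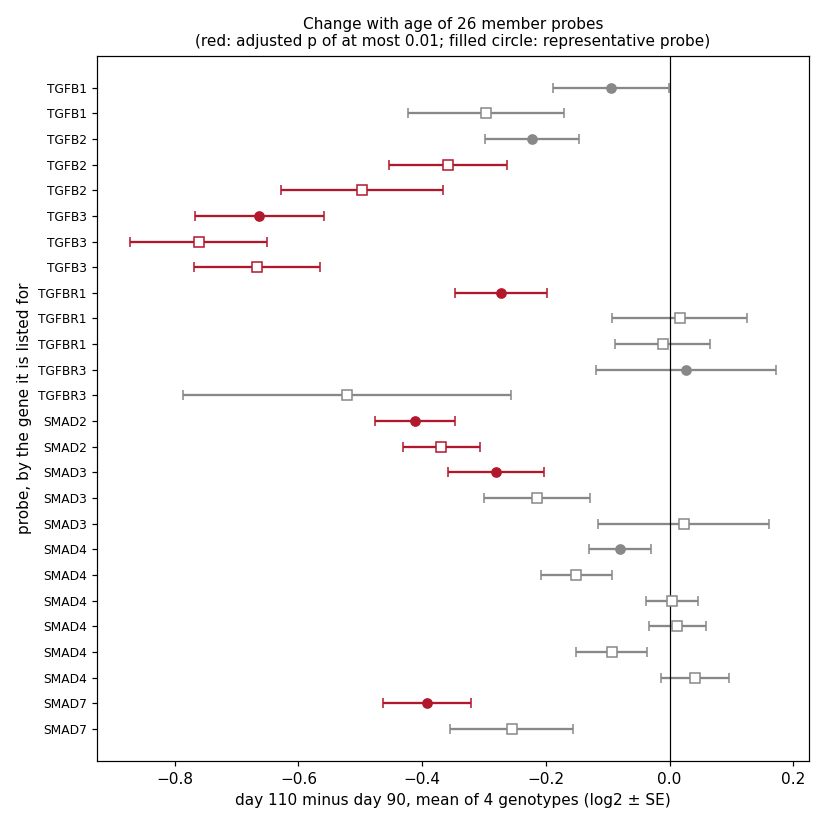
Day 110 minus day 90 as the mean of the 4 genotypes, log2 with its SE, for the 26 tested probes in rows named by gene; red marks an adjusted p of at most 0.01, and filled circles are representative probes. All 3 TGFB3 probes lie between -0.76 and -0.66, both SMAD2 probes near -0.4, and the 6 SMAD4 probes between -0.15 and 0.04.

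Among the receptors, TGFBR1, the kinase that phosphorylates SMAD2 and SMAD3, was lower at day 110 by its representative probe alone. That probe was at -1.06 to 0.29 (median -0.21) at day 90 and at -0.99 to 0.03 (median -0.57) at day 110. The difference was -0.27 (SE 0.07, adjusted p = 0.00237), and it was below 0 within all 8 slides. With arrays scaled by their median it was -0.22 and was not called (adjusted p = 0.0984). The other two probes gave -0.01 (SE 0.08) and 0.02 (SE 0.11), so the call of TGFBR1 and the size of its difference depend on the probe. TGFBR3 ran from -0.47 to 1.82 at day 90 and from -0.32 to 2.33 at day 110, and its difference was 0.03 (SE 0.15, adjusted p = 0.909). That value was -0.05 without fetus 632, so the age comparison gives the representative probe no direction. The second probe, A_72_P077506, gave -0.52 (SE 0.27, adjusted p = 0.115), which was not called. With normexp correction that probe was at -0.13 (adjusted p = 0.336).

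The receptor-activated SMADs were both lower at day 110 by their representative probes. SMAD2 was at 0.55 to 1.32 (median 0.96) at day 90 and at -0.31 to 1.07 (median 0.52) at day 110. The difference was -0.41 (SE 0.06, adjusted p = 5.21e-07), or 0.752 times, and its second probe gave -0.37 (SE 0.06, adjusted p = 2.31e-06). Both probes were below 0 within all 8 slides. In MS fetuses the second probe, A_72_P544747, was at -1.29 to -0.998 at day 90 and at -1.59 to -1.31 at day 110. This was the only case among the 26 probes in which the days did not overlap within MS, where 2.19% of all probes did not overlap, and in LW, MSLW and LWMS 0 of 26 did, against 1.23%, 4.28% and 3.05%.

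SMAD3 gave a smaller difference and its probes disagreed. The representative probe was at 0.31 to 1.49 (median 1.23) at day 90 and at 0.26 to 1.99 (median 0.89) at day 110. The difference was -0.28 (SE 0.08, adjusted p = 0.00282), below 0 within all 8 slides, and with median scaling it was -0.23 and was not called (adjusted p = 0.0818). Probe A_72_P146611 gave -0.21 (SE 0.09, adjusted p = 0.0418), and A_72_P444518 gave 0.02 (SE 0.14, adjusted p = 0.917), neither of which was called. With array weights A_72_P146611 was at -0.23 (adjusted p = 0.00936), which is called.

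SMAD4, the partner shared with bone morphogenetic protein signalling, had 6 tested probes and 0 were called. Its representative probe was at 1.20 to 1.79 (median 1.42) at day 90 and at 0.75 to 1.75 (median 1.41) at day 110. The difference was -0.08 (SE 0.05, adjusted p = 0.212). The largest fall of the 6 was that of A_72_P030446 at -0.15 (SE 0.06, adjusted p = 0.0299), and the highest value was 0.04.

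SMAD7, the feedback inhibitor, fell with age. It was at 2.03 to 3.16 (median 2.59) at day 90 and at 1.44 to 2.97 (median 2.15) at day 110. The difference was -0.39 (SE 0.07, adjusted p = 8.70e-06), or 0.762 times, and it was below 0 within all 8 slides. The second probe, dimmer and above background on 57 of 63 arrays, gave -0.26 (SE 0.10, adjusted p = 0.0352), which was not called.

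Taken genotype by genotype, fewer probes passed. In LW, 2 of 26 were lower, both of SMAD2 (7.69%, against 5.28% of all probes called and 2.83% called lower), and in LWMS 5 were lower, the 3 of TGFB3 and the 2 of SMAD2 (19.2%, against 11.1% called and 6.36% called lower). In MS and in MSLW 0 of 26 were called, where 3.19% and 5.71% of all probes were, while 11 and 8 of the 26 had an unadjusted p under 0.05. The LW count was 0 without LW fetuses 484 and 469 and 1 without fetuses 632 and 575, when the representative SMAD2 probe went from -0.47 (adjusted p = 0.00482) to -0.43 (adjusted p = 0.0125). With median scaling 1 probe was called in LWMS and 0 in LW. With limma's array weights 6 probes were called in MS and 3 in MSLW. With slide as a block 2 were called in MSLW, and in the authors' values 1. None of the 26 was called for a breed by age or a genotype by age interaction, of which 0.0173% and 0.0222% of all probes were called, and 0 had an unadjusted p under 0.05 in either test. The age change was therefore not shown to differ between genotypes for any of these genes. An F test of all 8 groups called 8 of the 26 probes (30.8%, against 28.7% of all probes). Without fetus 632 the F test called 11, with both TGFBR3 probes and the representative SMAD3 probe added, and 6 probes were called in LWMS, where that SMAD3 probe was at -0.45 (adjusted p = 0.0177 with all fetuses and 0.00672 without fetus 632).

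**Figure D3:**
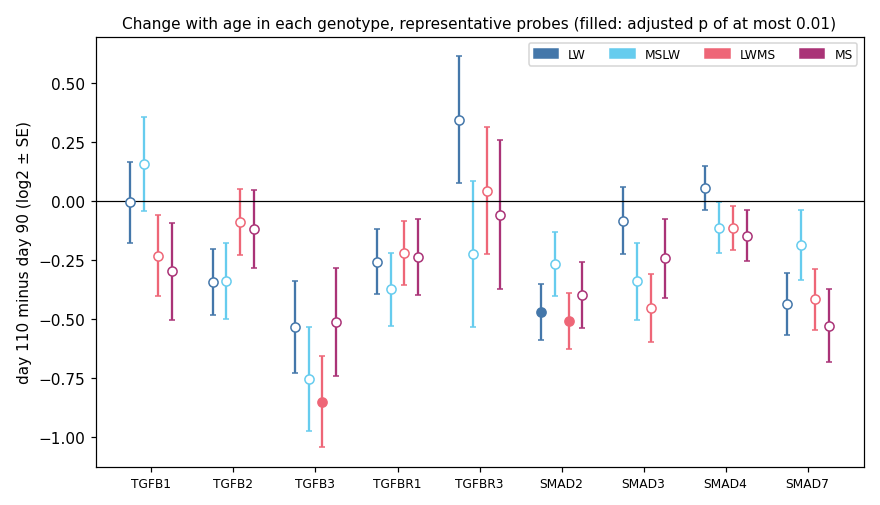
Day 110 minus day 90 in each genotype, log2 with its SE, for the representative probes of 9 genes; filled points have an adjusted p of at most 0.01. TGFB2, TGFB3, TGFBR1, SMAD2, SMAD3 and SMAD7 lie below 0 in all 4 genotypes, whereas TGFB1, TGFBR3 and SMAD4 lie on both sides of 0.

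Breed was compared as MS minus LW at each age. At day 90, 0 of 26 probes were called (3.66% of all probes) and 3 had an unadjusted p under 0.05. At day 110, 0 were called (5.26% of all probes) and 4 had an unadjusted p under 0.05. Among these were the representative probe of TGFB2, 0.32 higher in MS (limma adjusted p = 0.178), and A_72_P176121, 0.41 higher (adjusted p = 0.170). The third TGFB2 probe, A_72_P541206, went the other way, at -0.50 (adjusted p = 0.241). The study reported a lower TGFB2 level in LW than in MS at this age. The smallest adjusted p at day 90 was that of the dim SMAD7 probe A_72_P492369, 0.68 higher in MS (SE 0.20, adjusted p = 0.0302). At day 110 both probes of TGFBR3 came nearest, and without fetus 632 both were called. With array weights 3 probes were called at day 110, and with slide as a block 1 was.

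TGFBR3, the co-receptor that holds the ligand at the cell surface, held both probes called for the breed of the sire, a share close to that of all probes. In the main fit with all fetuses, neither of its probes was called for MS minus LW. At day 110 its representative probe ranged over 0.34 to 2.12 in LW, -0.22 to 1.13 in MSLW, 0.05 to 1.69 in LWMS and -0.32 to 2.33 in MS, with medians of 1.63, 0.62, 0.97 and 0.07. At day 90 the ranges were -0.47 to 1.82, -0.32 to 1.46, 0.24 to 1.37 and 0.08 to 1.03 in the same order, with medians of 1.32, 0.80, 0.82 and 0.49. LW thus had the highest median and MS the lowest at both ages, with the crosses between them and all ranges overlapping. The MS value of 2.33 was that of fetus 632, and the other 6 MS fetuses lay between -0.32 and 0.88. MS minus LW at day 110 was -0.98 (SE 0.29, adjusted p = 0.0176), which misses the threshold of 0.01. Without fetus 632 it was -1.29 (adjusted p = 0.000541). The second probe, A_72_P077506, gave -1.80 (SE 0.51, adjusted p = 0.0144), and -2.07 without fetus 632 (adjusted p = 0.00520). At day 110 this probe was well above background in 9 of 9 LW but only 4 of 7 MS, 3 of 6 MSLW and 7 of 9 LWMS fetuses, so the low side of these values lies partly at background and their size is uncertain.

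**Figure D4:**
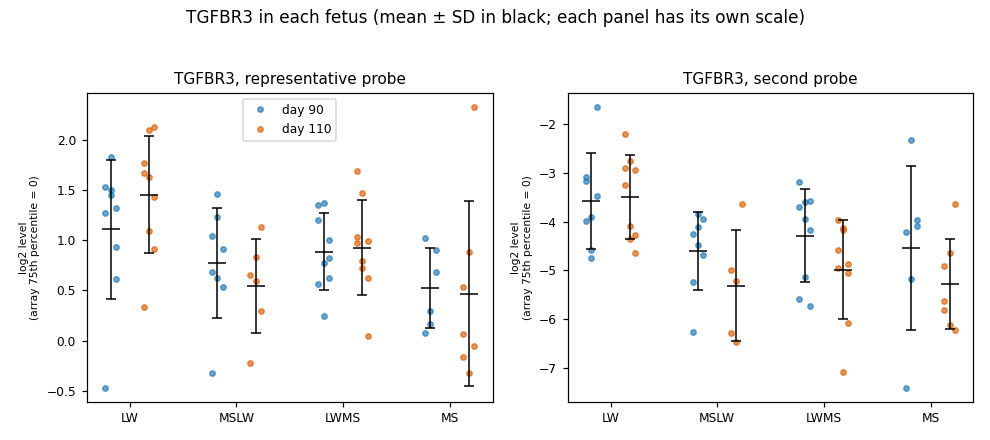
Log2 level of both TGFBR3 probes in each fetus, by genotype and day, with the group mean ± SD in black; the scales of the panels differ. LW has the highest group means on both probes at both ages, and 1 MS fetus at day 110, at 2.33 on the representative probe, lies above all other fetuses.

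Fetuses of an MS sire were compared with those of an LW sire, averaged over sow breed and age. Of the 26 probes, 2 were called lower with an MS sire (adjusted p under 0.05), both of TGFBR3, which is 7.69% where 6.95% of all probes were called and 3.84% called lower. The representative probe was at -0.47 to 2.12 (median 1.06) in 36 fetuses of LW sires and at -0.32 to 2.33 (median 0.62) in 27 of MS sires. The ranges overlapped widely, and the difference was -0.51 (SE 0.15, adjusted p = 0.0187), below 0 within 7 of 8 slides. The second probe gave -0.85 (SE 0.27, adjusted p = 0.0368), below 0 within all 8 slides. It was well above background on 48 of 63 arrays, 2 outlier spots were left out of its fit, and its call was lost without LW fetuses 484 and 469 (adjusted p = 0.0598), with no filter on dim probes (adjusted p = 0.0580), with normexp correction and in the authors' processed values. The study's own mixed model of parental genotype found no probe affected by the genotype of the sire. It reported only a moderate effect of the genotype of the sow. In the fit used here litter mates counted as independent, so the calls by sire breed stand against the study's result.

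For the breed of the sow, 0 of 26 probes were called (16% of all probes) and 2 had an unadjusted p under 0.05. With array weights 7 were called, and with median scaling and in the authors' values 1 each. TGFBR3 was -0.27 (SE 0.15, adjusted p = 0.208) with an MS sow. Of 5 endothelial markers, KDR and TEK were also lower with an MS sire, at -0.47 and -0.28, and KDR alone was lower with an MS sow, at -0.51. The call of TEK was lost without fetus 632 (adjusted p = 0.0541), with median scaling (adjusted p = 0.0831) and with no filter on dim probes (adjusted p = 0.0616), and that of KDR by sow breed with median scaling (adjusted p = 0.0544). The mean level of the 5 was 0.45 to 1.43 (median 1.14) in LW and -0.18 to 1.23 (median 0.95) in MS at day 110. For MS minus LW at day 90, 1 of 6 fibroblast markers was lower and 1 of 2 erythroid markers was higher. At day 110 KDR was lower in MS, at -1.06 (adjusted p = 0.00521). CD163, a macrophage marker, and S100B, a marker of glia, were higher in MS at day 110, at 1.04 and 0.81. Of the other markers, LUM was lower and AHSP and S100B were higher with an MS sire, and CD163 and S100B were higher and UCHL1 lower with an MS sow. With median scaling the calls of S100B by sire breed and UCHL1 by sow breed were lost (adjusted p = 0.132 and 0.211). Their part in the TGFBR3 difference was not tested.

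Tissue markers also moved with age, beside the 5 representative probes that fell. Of 5 epithelial markers 4 were higher at day 110 (ALPI, LCT, EPCAM and CDH1), and their mean level had group medians of 3.10 to 3.33 at day 90 and 4.35 to 4.72 at day 110. Of 6 fibroblast markers 4 were lower (COL1A1, COL1A2, COL3A1 and DCN, of which COL3A1 lost its call with quantile normalization, with median scaling, with no filter on dim probes and in the authors' values, at adjusted p of 0.0134 to 0.0621), with group medians of 2.94 to 3.44 at day 90 and 2.61 to 3.02 at day 110. Of 6 smooth muscle markers ACTA2 alone was lower, of 5 neuron and glia markers ELAVL4 and UCHL1 were lower, and of 5 leukocyte markers CD163 alone was higher. ELAVL4 lost its call with normexp correction, at -0.30 (adjusted p = 0.0106). Both erythroid markers, HBB and AHSP, were lower, and 0 of 5 endothelial and 0 of 2 exocrine pancreas markers were called. The part of these shifts in the fall of the representative probes of TGFB3, TGFBR1, SMAD2, SMAD3 and SMAD7 was not tested. Without fetuses 632 and 575, 11 of the 26 probes were lower with age.

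Other genes of the pathway were taken from lists and represented in the same way. Among genes of ligand latency and activation, 3 of 9 were called with age, 2 higher and 1 lower, where 28.5% of all probes were called. ITGB6, which with ITGAV forms an integrin that releases latent TGF-beta, rose from a range of -2.59 to -1.40 (median -2.04) to -1.68 to -0.12 (median -1.16). The difference was 0.93 (SE 0.08, adjusted p = 8.38e-14). ITGAV rose by 0.30 (SE 0.06, adjusted p = 3.89e-05), and DCN, a matrix proteoglycan that binds TGF-beta and is also among the fibroblast markers, fell by 0.50 on the log2 scale (SE 0.08, adjusted p = 3.07e-07). The other genes of this list, ITGB8, THBS1, FBN1, LTBP2, LTBP3 and LTBP4, were not called, and the median difference of the 9 was 0.04.

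Of 9 inhibitors of the pathway other than SMAD7, 2 were called with age, no larger a share than the 28.5% of all probes. NEDD4L, a ubiquitin ligase that acts on phosphorylated SMADs, rose from a median of 1.02 to 1.52, a difference of 0.50 (SE 0.07, adjusted p = 1.51e-07). PMEPA1, which sequesters SMAD2 and SMAD3 and is itself a target gene, went from a median of 1.90 to 1.58, a difference of -0.34 (SE 0.09, adjusted p = 0.00200), which was not called with median scaling (adjusted p = 0.0631). SKI, SKIL, SMAD6, SMURF2, STRAP, TGIF1 and PPM1A lay between -0.15 and 0.15 and were not called. Of 3 accessory receptors and other SMADs (ENG, SMAD1 and ZFYVE9) and 5 nuclear partners (CREBBP, EP300, RUNX3, SP1 and TRIM33), 0 were called.

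Of 14 target genes tested, 9 were called with age, 2 higher and 7 lower, where 28.5% of all probes were called, with a median of -0.30 against -0.02 over all probes. CDKN2B, a cyclin-dependent kinase inhibitor induced by TGF-beta, rose from a median of -4.58 to -1.53, a difference of 2.63 (SE 0.21, adjusted p = 1.58e-15). It was well above background on 23 of 32 arrays at day 90 and on 30 of 31 at day 110, so the size is uncertain at day 90. CDKN1A, another cell-cycle inhibitor, also rose, by 0.66. TGFBI, a matrix protein named for its induction by TGF-beta, fell from a median of 2.79 to 1.77, a difference of -0.97 (SE 0.09, adjusted p = 6.14e-13). COL1A1, a chain of type I collagen, went from a median of 4.80 to 3.80, a difference of -0.81 (SE 0.23, adjusted p = 0.00309). COL1A2, COL3A1 (with the limits given above), POSTN, ACTA2 and ID2 were lower too, and COL1A1, COL1A2, COL3A1 and ACTA2 are also among the fibroblast or smooth muscle markers. The other 5 targets, CTGF, FN1, ID1, ID3 and TAGLN, lay between -0.24 and -0.07 and were not called. For MS minus LW, 0 genes of these 5 lists were called at either age.

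**Figure D5:**
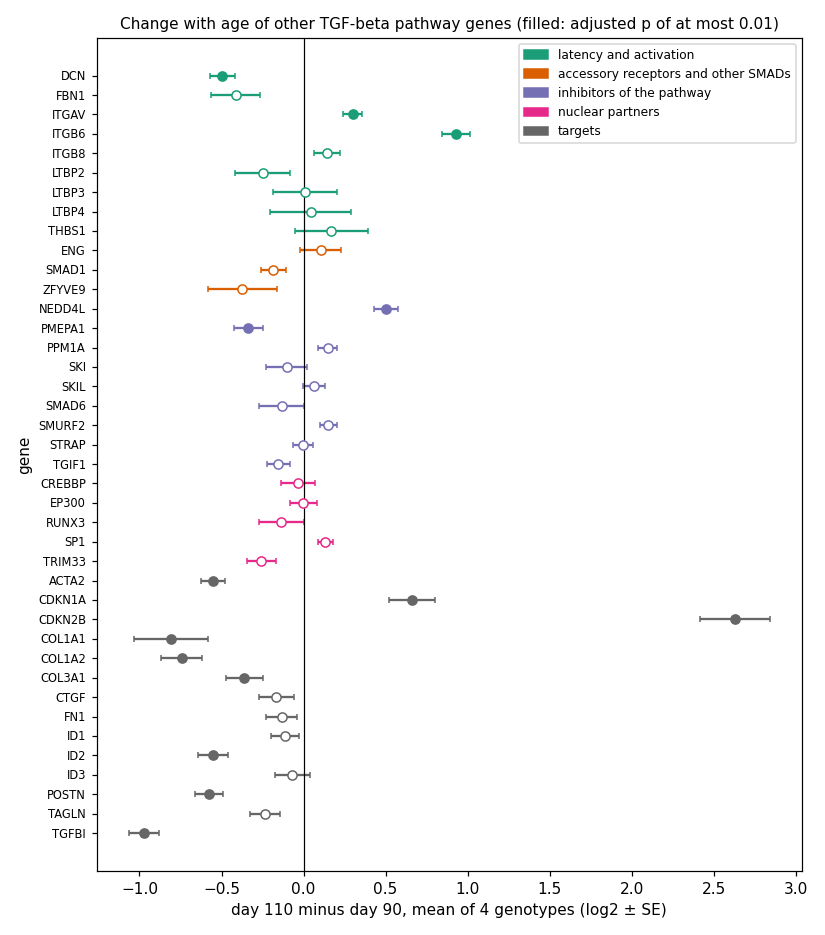
Day 110 minus day 90 as the mean of the 4 genotypes, log2 with its SE, for other pathway genes coloured by list; filled points have an adjusted p of at most 0.01. CDKN2B at 2.63 and ITGB6 at 0.93 are the highest, and TGFBI at -0.97 is the lowest.

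For the genes whose 8 group means spanned at least 0.5, the named genes with the most similar pattern over the 8 groups were found by the mean absolute difference of centred group means. For TGFB3 (span 0.90) they were CASQ1, P311 and ACTA2, at 0.04 each. For SMAD2 (span 0.62) they were SULT1A1, PPOX and ZC3H8, and for SMAD7 (span 0.67) ALAD, FZD4 and UBE2J1, at 0.04 to 0.05. For TGFBR1 (span 0.52) they were DOCK11, KLHDC3 and ZFYVE16, at 0.03. For TGFBR3 (span 0.98) they were TYW3, OLFML3 and SH3BP4, at 0.08 to 0.10, so its pattern had the least close match of the 5.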

How the data were processed

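Jejunum RNA of 63 male fetuses was hybridised to single-colour Agilent arrays, 7 to 8 on each of 8 slides. The authors deposited the scanner output of Agilent Feature Extraction 10.10.1.1, which holds each spot's intensity on a linear scale, and a matrix of processed log2 values for 39446 probes. The genome build of the probes is not given in the sources used here, so no coordinates are given.

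The processed signal of each spot, from which background had been subtracted, was put on the log2 scale and shifted to set the 75th percentile of its array to 0. Control spots were dropped and outlier spots treated as missing, and no spot was saturated. Tests covered probes that, in 1 group or more, exceeded background clearly on 75% or more of the arrays. Group means were fitted with limma 3.58.1 in R 4.3.3 with 1 variance per probe, and two-sided p-values were adjusted over 40515 probes (Benjamini-Hochberg). The limit on the adjusted p was 0.01 for age, MS minus LW, both interactions and the F test, and 0.05 for sow and sire breed. The sow, a random term in the study's model, was not used here. P-values measure the spread between fetuses, some of which share a litter. Litter mates also share the day and the breed of the sow. The p-values for age, MS minus LW and sow breed may therefore be too small.

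Groups were taken from the sample labels. The members, gene lists and tests were chosen with earlier results of these data known. From the other lists, up to 3 called genes with the largest change with age are described, and further genes are named only to account for a count. An item of the list of targets is not reported here. Alternatives were the authors' values, normexp with an offset of 50, quantile normalization, median scaling, no filter or a stricter filter on dim probes, slide as a block, array weights, a minimum absolute log2 difference of 0.5 and leaving out LW fetuses 484 and 469. Over the tested probes, the median correlation with the other arrays was 0.919 for fetus 484 and 0.937 for fetus 469. MS fetus 532, at 0.929, was kept in every alternative. Leaving out fetuses 632 and 575 was chosen after seeing the data. The steps were tested on simulated data with noise drawn independently for each array. Litter mates were not made alike in it, so that test cannot cover the effect of shared litters. The number of arrays limits the precision.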

Additional observations from a re-analysis of the deposited data

Results flagged for a closer look

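In each of the 8 groups the representative probe of 9 genes was examined for a fetus far from the rest by Dixon's test, which made 72 groups of values. Of these 5 held such a fetus, and chance alone would mark about 1 in 20. LW fetus 484 at day 90 was the lowest of its group for TGFB3, at -1.07 against -0.08 for the next, and for SMAD3, at 0.31 against 1.001. MSLW fetus 498 at day 90 was low for TGFB3, at -0.88 against -0.16. MS fetus 524 at day 90 was low for TGFB1, at -0.77 against -0.29. LWMS fetus 520 at day 90 was low for SMAD7, at 2.15 against 2.53.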

How the results depend on the processing

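No paired analysis was possible because each fetus number belongs to 1 fetus and the sow, which litter mates share, is not given in the sources used here. The count of 10 probes lower with age was 8 to 13 under all alternatives but the minimum log2 difference of 0.5, which left 3. That minimum gave 0 for age in LW. With array weights, 15 probes were called by the F test, 5 for age in LW, 6 in MS and 3 in MSLW, 3 for MS minus LW at day 110, 7 by sow breed and 4 by sire breed. Median scaling gave 5 for the F test, 0 for age in LW, 1 in LWMS and 1 by sow breed. Normexp and no filter each gave 1 for age in LW and 1 by sire breed. With slide as a block, 1 was called for MS minus LW at day 110 and 2 for age in MSLW. The authors' values gave 1 for age in MSLW, 1 by sow breed and 1 by sire breed. Without LW fetuses 484 and 469 there were 1 for MS minus LW at day 110, 0 for age in LW, 1 in MSLW and 1 by sire breed. Without fetus 632 there were 2 for MS minus LW at day 110, and without 632 and 575 there were 2, with 1 for age in LW and 1 in MSLW. The causes of these shifts were not tested.

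Directions turned only in values that were not called. With age, TGFBR1 O5191 was 0.0139 in the authors' values, 0.0233 with normexp, 0.00489 with quantile normalization, 0.0395 with median scaling, 0.0011 with slide as a block and 0.0315 with array weights. TGFBR3 O5288 was -0.0045 with slide as a block, -0.16 with array weights, -0.0509 without fetus 632 and -0.0564 without 632 and 575. TGFBR1 A_72_P035676 was -0.0117 without 632 and 575, SMAD3 A_72_P444518 was -0.0042 without 484 and 469, and SMAD4 A_72_P631629 was -0.0028 in the authors' values. The breed by age value of TGFB2 A_72_P176121, -0.03, was 0.0687 in the authors' values, 0.12 with median scaling, 0.0307 with array weights and 0.0670 without 484 and 469. TGFB3, by all 3 probes, was called lower with age under all 12 alternatives, and both SMAD2 probes and SMAD7 A_72_P369043 under 11 of 12, all but the minimum difference. TGFBR1 A_72_P036661 and SMAD3 O13325 also lost their calls with median scaling. TGFB2 A_72_P541206 lost its call with normexp (adjusted p = 0.0540) and quantile normalization (adjusted p = 0.0136). Dim probes are limited by signal over background. The calls of other pathway genes and markers, 23 by age and 11 by sow or sire breed, kept their direction in all of their alternatives, and were lost in 12 of 276 values by age, mostly for COL3A1 and for the minimum difference, and in 17 of 132 by breed, among them CDKN1A by sow breed in the authors' values (adjusted p = 0.0511).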

Other observations

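By the breed of the sow, 2 of 14 targets were called (limma, adjusted p under 0.05), a share no larger than the 16% of all probes, and both were higher in fetuses of MS sows: CDKN2B with a log2 difference of 0.77 (adjusted p = 0.00878) and CDKN1A at 0.42 (adjusted p = 0.0316). The call of CDKN1A was lost in the authors' processed values, with quantile normalization and with a minimum log2 difference of 0.5. These genes, named after their values were seen, are the 2 of those targets that were higher at day 110. Of the 26 probes of ligands, receptors and SMADs 0 were called in the same comparison.

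The spread between fetuses of a group, as the SD of the representative probe averaged over the 4 genotypes, was larger at day 110 in 9 of 9 genes, as it was for 61.6% of all 40515 probes. It went from 0.17 to 0.37 in SMAD3 and from 0.30 to 0.46 in TGFB3, but only from 0.26 to 0.27 in TGFBR1. It was larger within all 4 genotypes for TGFB1 alone, within 3 for 3 genes and within only 2 for SMAD2, SMAD4, SMAD7, TGFBR1 and TGFBR3. Without fetuses 632 and 575 it was still above that of day 90 in 9 of 9 genes, at 0.32 in SMAD3 and 0.43 in TGFB3, but TGFBR3, at 0.61 with all fetuses, was then at 0.505 against 0.504 at day 90. The difference in spread was not tested.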
